A study of Jaltomata procumbens and Jaltomata herrerae with 23 samples.

Results

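The genes described here are MYB21 (AT3G27810), MYB24 (AT5G40350), MYB57 (AT3G01530), ARF6 (AT1G30330) and ARF8 (AT5G37020), a set of transcription factors, followed through the floral nectary and the leaf of Jaltomata herrerae and Jaltomata procumbens. The rule lists them by name and uses no measured value, and they were proposed with earlier results of these data known. The deposited table gives Jaltomata expression under Arabidopsis thaliana locus identifiers, and 4 of the 5 genes were measured among 13170 loci. MYB57 was not analysed here.

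In Arabidopsis, ARF6 and ARF8 are auxin response factors, which bind DNA and activate genes when auxin causes their Aux/IAA repressors to be degraded. ARF6 and ARF8 are needed there for jasmonate production in the opening flower. Jasmonate in turn removes JAZ repressors and allows MYB21, MYB24 and MYB57 to act, and these MYB factors promote stamen filament growth, petal expansion and, in the case of MYB21, nectary function. Roles given below come from Arabidopsis unless another plant is named.

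Jaltomata is a genus of the nightshade family, and both species were grown as unmodified plants in a growth facility. RNA was taken from hand-dissected floral nectaries before secretion (24 to 48 h before the flower opened), during secretion (fully open flowers, 3 to 6 h after dawn) and after the petals had dropped, and from fully expanded leaves. Herrerae had 3 pre-secretory, 3 secretory, 3 post-secretory and 2 leaf libraries, and procumbens had 4, 2, 3 and 3. Plant age was not given, and the labels do not say whether replicates came from separate plants, so the spread behind each p-value is that of these libraries and may be technical.

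Of the 23 libraries, 3 from procumbens were left out, as the rule states without a reason, and all 3 stood apart from their labels. The library labelled pre-secretory A resembled herrerae leaf (r = 0.895) more than the rest of its group (0.471). The one labelled post-secretory A resembled procumbens secretory nectary (0.981 against 0.836), and leaf A resembled procumbens post-secretory nectary (0.97 against 0.718). Of the 20 libraries kept, 19 correlated best with their own group, and the exception was procumbens pre-secretory C (0.915, against 0.959 with the secretory nectaries). Results below use the 20 libraries unless all 23 are named. Values with all 23 are given beside many of the calls that changed, and not beside all of them. A call printed without such a value may therefore also have changed. From secretory to post-secretory nectary in procumbens, 0 of 13080 loci passed with all 23 libraries. Every procumbens call at that step, for members, listed genes and tissue markers, was thus lost with all 23.

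The tissue labels were checked against marker genes. The 7 measured leaf photosynthesis genes summed to 33085 to 100716 TPM (transcript abundance per unit length, scaled to a fixed total) in the kept leaf libraries and to 132 to 241 TPM in the secretory nectaries of both species. The 4 measured nectary markers, led by the sucrose exporter SWEET9, summed to 9890 to 42719 TPM in secretory nectary. In leaf they summed to 295 to 575 TPM in herrerae and 25 to 101 TPM in procumbens. The 3 petal and stamen identity genes were also present in every nectary library, at 82 to 258 TPM summed against 7 to 13 in leaf. Each library listed 542947 to 779099 TPM in all and had 11331 to 12449 loci at 1 TPM or more. TPM keeps no read depth, so the counting precision of a low value is unknown.

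MYB21, which promotes nectary maturation and nectar production in Arabidopsis, was measured before and during secretion and was close to 0 elsewhere. In herrerae it stood at 21, 46 and 35 TPM in pre-secretory nectaries A, B and C, and at 54, 25 and 22 TPM in secretory nectaries A, B and C. It then stood at 1, 0 and 0 TPM in post-secretory nectaries A, B and C, and at 1 and 0 TPM in leaves A and B. Both stages up to secretion thus lay above every post-secretory and leaf library, and the pre-secretory and secretory values overlapped. In procumbens, MYB21 stood at 21, 18 and 10 TPM in pre-secretory nectaries B, C and D and at 15 and 20 TPM in secretory nectaries A and B. Post-secretory B held 1 TPM and post-secretory C held 0, and leaves B and C were both listed at 0. The order was the same in both species, with 2 stages well above 0 and 2 tissues at 0 or 1 TPM. An exact 0 can be a failed estimate, since the actin gene ACT2 was also listed at 0 in 8 of 11 herrerae and 5 of 12 procumbens libraries. In the libraries left out, MYB21 was at 0 TPM in pre-secretory A, 21 in post-secretory A and 9 in leaf A.

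MYB24, a close relative of MYB21 with an overlapping role in stamens and petals, followed the same course at a higher level. In herrerae its level was 416, 1283 and 804 TPM in pre-secretory nectaries A, B and C (834 ± 434 TPM, mean ± SD, n = 3). Secretory nectaries A, B and C held 822, 421 and 309 TPM (517 ± 270, n = 3), and post-secretory nectaries held 92, 25 and 76 TPM (64.3 ± 35, n = 3). Leaves A and B held 9 and 15 TPM. The pre-secretory and secretory libraries overlapped, and all of them lay above all post-secretory libraries, which lay above leaf. In procumbens the level was 564, 783 and 251 TPM in pre-secretory nectaries B, C and D (533 ± 267, n = 3) and 649 and 860 TPM in secretory nectaries A and B. Post-secretory B held 110 TPM and post-secretory C held 19 TPM, a spread that leaves the level at this stage poorly fixed. Leaves B and C held 1 TPM each. In the libraries left out, MYB24 stood at 4 TPM in pre-secretory A, 715 in post-secretory A and 243 in leaf A. Within each kept library before or during secretion, MYB24 stood higher than 96.2 to 99.7% of all loci.

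ARF6, the auxin response factor that acts together with ARF8 in flower maturation, was present in every tissue. In herrerae it stood at 41, 75 and 47 TPM in pre-secretory nectaries A, B and C (54.3 ± 18.1 TPM, n = 3) and at 26, 26 and 19 TPM in secretory nectaries (23.7 ± 4.04, n = 3). It stood at 96, 109 and 111 TPM in post-secretory nectaries (105 ± 8.14, n = 3) and at 60 and 40 TPM in leaves A and B. The 3 nectary stages of herrerae did not overlap, with secretory lowest and post-secretory highest. In procumbens, ARF6 stood at 102, 81 and 115 TPM in pre-secretory nectaries B, C and D (99.3 ± 17.2, n = 3), at 72 and 87 TPM in secretory nectaries A and B, at 168 and 187 TPM in post-secretory B and C, and at 69 and 60 TPM in leaves B and C. Post-secretory was again highest, while the pre-secretory and secretory libraries overlapped. The libraries left out held 40 TPM in pre-secretory A, 79 in post-secretory A and 126 in leaf A.

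ARF8, which also holds back fruit growth until fertilization, was present in every tissue as well. In herrerae it stood at 50, 113 and 59 TPM in pre-secretory nectaries A, B and C (74 ± 34.1 TPM, n = 3) and at 40, 36 and 24 TPM in secretory nectaries (33.3 ± 8.33, n = 3). Post-secretory nectaries held 120, 158 and 157 TPM (145 ± 21.7, n = 3) and leaves A and B held 73 and 43 TPM. The order was that of ARF6, with secretory lowest and post-secretory highest and no overlap between the nectary stages. In procumbens it stood at 145, 90 and 161 TPM in pre-secretory nectaries B, C and D (132 ± 37.2, n = 3) and at 90 and 88 TPM in secretory nectaries A and B. Post-secretory B held 82 and post-secretory C 145 TPM, and leaves B and C held 23 and 35 TPM. The 3 nectary stages of procumbens overlapped in TPM, and all lay above leaf. The libraries left out held 33 TPM in pre-secretory A, 82 in post-secretory A and 103 in leaf A.

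**Figure D1:**
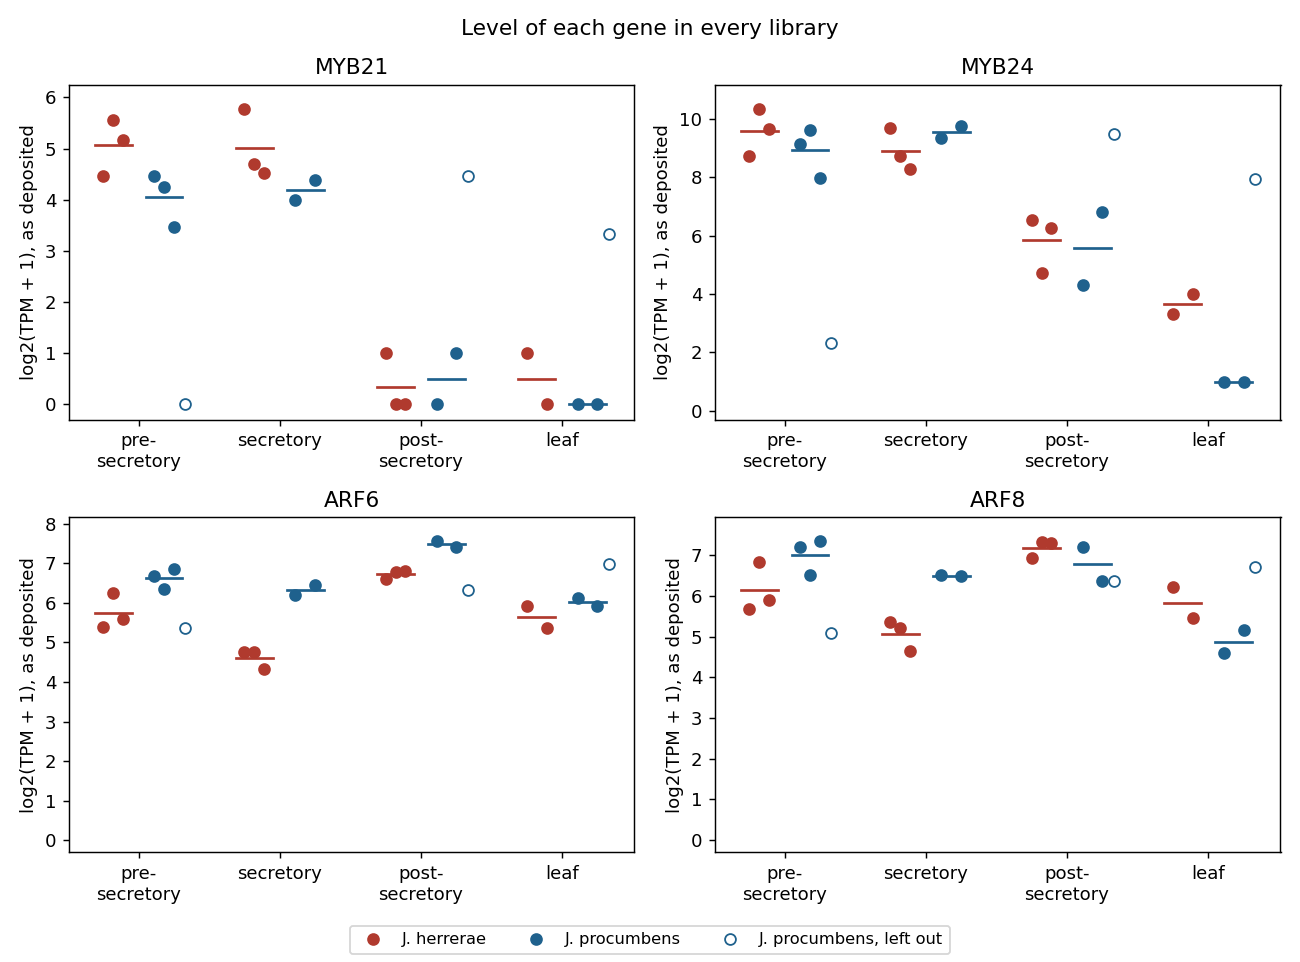
Level of MYB21, MYB24, ARF6 and ARF8 in each library, as log2(TPM + 1) of the deposited values, by tissue and species. Filled points are kept libraries, bars are their means, and open points are the 3 procumbens libraries left out. MYB21 and MYB24 are high in pre-secretory and secretory nectary and low after secretion, and ARF6 is highest after secretion in both species.

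The comparisons between groups were tested with limma across 13075 loci, on log2(TPM + 1) after each library was rescaled by its median ratio to a reference over 9613 loci. A locus was called at a Benjamini-Hochberg adjusted p under 0.05 over all loci of a comparison. Log2 changes below are on this rescaled scale unless the deposited scale is named, with their SE. Each locus has 1 variance over all groups, so an SE in herrerae carries the spread in procumbens too. Rescaling matters here: the median change of all loci from secretory to post-secretory nectary was 0.86 in herrerae and 0.42 in procumbens on the deposited scale, and 0.13 and 0.06 after rescaling. For the species contrast in secretory nectary it was -0.84 as deposited and 0 rescaled.

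At the end of secretion both MYB genes fell and ARF6 rose in both species, and ARF8 rose in herrerae. In herrerae all 4 genes passed the test, beside 58.4% of all loci, of which 32.9% were higher and 25.5% lower. MYB21 fell by 5.41 on the log2 scale (SE 0.38, adjusted p = 9.33e-08), a size that depends on the pseudocount of 1 because the later values are 0 and 1. MYB24 fell by 3.96 (SE 0.6, adjusted p = 5.09e-05). ARF6 rose by 1.24 (SE 0.13, adjusted p = 1.9e-06) and ARF8 by 1.22 (SE 0.24, adjusted p = 0.000483). As deposited, the rises of the ARF genes were larger, at 2.12 for ARF6 and 2.11 for ARF8. With all 23 libraries the fall of MYB24 kept its size (-3.95) and missed the threshold (SE 1.67, adjusted p = 0.0776).

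In procumbens 3 of the 4 genes passed the same test, beside 38.3% of all loci (21.4% higher and 16.9% lower). MYB21 fell by 3.58 (SE 0.46, adjusted p = 5.76e-05) and MYB24 by 4.37 (SE 0.73, adjusted p = 0.000381). The size for MYB21 again depends on the pseudocount. ARF6 rose by 0.75 (SE 0.16, adjusted p = 0.00171), or by 1.15 as deposited. ARF8 had a log2 change of -0.11 (95% interval -0.73 to 0.51, adjusted p = 0.821). With all 23 libraries none of the 4 passed, beside 0 of all 13080 loci tested. The changes were then -2.25 for MYB21 (adjusted p = 0.432), -2.88 for MYB24 (0.525), 0.56 for ARF6 (0.372) and -0.05 for ARF8 (0.996). The added post-secretory A, which held MYB21 at 21 and MYB24 at 715 TPM, is the library that correlated best with secretory nectary.

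Other tissue markers moved over the same step. The summed leaf photosynthesis genes went from 132 to 241 TPM in secretory to 2196 to 6366 TPM in post-secretory herrerae nectary, with 5 of 7 called higher, and from 167 to 199 to 1165 to 1616 TPM in procumbens, with 4 of 7 called higher. Of these genes GAPA was at 0 in every secretory library. The summed petal and stamen identity genes were 82 to 104 TPM in secretory and 131 to 173 in post-secretory herrerae nectary, with 2 of 3 called lower on the rescaled scale, and 177 to 189 and 212 to 245 TPM in procumbens, with none of 3 called. The 6 carpel and ovule markers summed to 304 to 490 and then 208 to 256 TPM in herrerae, with 2 called higher and 2 lower, and to 733 to 812 and then 330 to 382 TPM in procumbens, with 1 called each way. The 2 measured pollen and tapetum markers summed to 7 to 48 and then 62 to 68 TPM in herrerae, with 1 called lower, and to 19 to 25 and then 15 to 17 TPM in procumbens, with none called. The part of these markers in the results was not tested, and in a dissected tissue fewer cells of a type and less RNA per cell cannot be told apart.

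**Figure D2:**
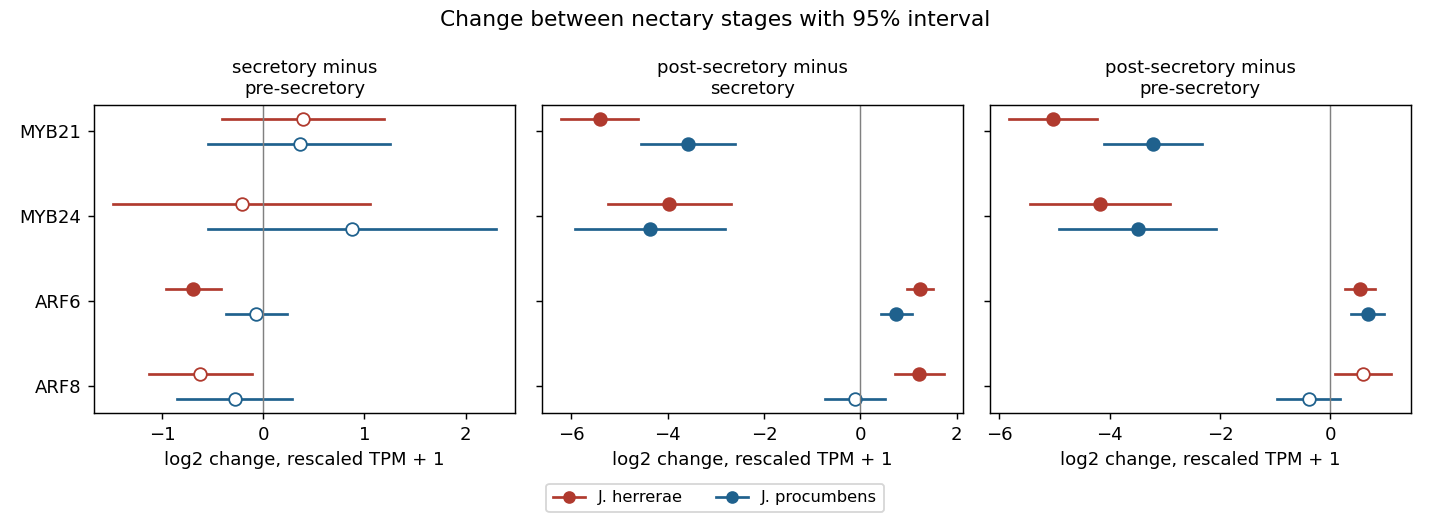
Log2 change of each gene between nectary stages, on rescaled TPM + 1, with 95% intervals from limma. Filled points passed an adjusted p of 0.05. From secretory to post-secretory nectary both MYB genes fell in both species, ARF6 rose in both, and ARF8 rose in herrerae and lay at -0.11 in procumbens.

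At the onset of secretion the MYB genes did not pass the test and ARF6 fell in herrerae. In herrerae 1 of the 4 genes passed, beside 33.5% of all loci (15.4% higher and 18.1% lower). ARF6 fell by 0.69 (SE 0.13, adjusted p = 0.000876). ARF8 had a change of similar size, -0.62 (SE 0.24), that missed the threshold (adjusted p = 0.0567) and passed it as deposited (-1.07, adjusted p = 0.0285), where the median of all loci was -0.39. MYB21 changed by 0.39 (95% interval -0.41 to 1.19) and MYB24 by -0.21 (-1.48 to 1.06). In procumbens none of the 4 genes passed in limma, also at an unadjusted p of 0.05, beside 35.6% of all loci (17.3% higher and 18.3% lower). The log2 changes were 0.36 for MYB21 (95% interval -0.54 to 1.25), 0.88 for MYB24 (-0.54 to 2.3), -0.07 for ARF6 (-0.37 to 0.24) and -0.28 for ARF8 (-0.85 to 0.29).

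Across the whole course, from pre-secretory to post-secretory nectary, 3 of 4 genes passed in herrerae, beside 38.6% of loci, and 3 of 4 in procumbens, beside 33.1%. In herrerae MYB21 fell by 5.03, MYB24 fell by 4.17, ARF6 rose by 0.55 (SE 0.13, adjusted p = 0.00367), and ARF8 was at 0.6 (SE 0.24, adjusted p = 0.0605), which as deposited was 1.04 and passed (adjusted p = 0.0249). In procumbens MYB21 fell by 3.22, MYB24 fell by 3.49, ARF6 rose by 0.68 (SE 0.14, adjusted p = 0.00171), and ARF8 was at -0.39 (SE 0.27, adjusted p = 0.297). The MYB21 sizes over this course depend on the pseudocount as well. Only MYB21 in herrerae passed with all 23 libraries (-5.04, adjusted p = 0.00858). ARF6 then stood at 0.56 (adjusted p = 0.0748) in herrerae and 0.6 (adjusted p = 0.081) in procumbens, and MYB24 at -4.16 (0.122) and -0.54 (0.884). Without post-secretory C the fall of MYB24 in procumbens was 2.29 on the log2 scale (-2.29, adjusted p = 0.0253).

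Against leaf, the MYB genes were higher in the nectary before and during secretion, and the ARF genes depended on the stage and species. In herrerae 2 of 4 genes passed before secretion (41.7% of all loci), 3 during it (57.8%) and 2 after it (31.5%). MYB21 was higher than in leaf by 4.77 before and 5.16 during secretion, sizes that depend on the pseudocount of 1 because the leaf values are 1 and 0 TPM. MYB24 was higher by 5.84 and 5.63. Herrerae leaf also held nectary markers, at 295 to 575 TPM summed, and their part in the MYB values was not tested. After secretion the MYB21 values of both tissues were 0 or 1 TPM and MYB24 lay 1.67 above leaf (SE 0.67, adjusted p = 0.0703), or 2.17 as deposited (adjusted p = 0.0211). ARF6 did not differ detectably from leaf before secretion (0.01, 95% interval -0.29 to 0.31), lower during it (-0.68, SE 0.14, adjusted p = 0.000722) and higher after it (0.56, SE 0.14, adjusted p = 0.00745). ARF8 passed after secretion, at 0.81 (SE 0.27, adjusted p = 0.0297). The post-secretory rises of both ARF genes over herrerae leaf rest on leaf B: without it ARF6 stood at 0.34 (adjusted p = 0.167) and ARF8 at 0.51 (adjusted p = 0.325). The ARF8 call was also lost without post-secretory B (0.75, adjusted p = 0.082) or C (0.81, adjusted p = 0.065), and MYB24 passed without post-secretory B (2.24, adjusted p = 0.022). With all 23 libraries the MYB calls in herrerae remained and ARF6 and ARF8 missed after secretion (adjusted p = 0.14 and 0.233).

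In procumbens 3 of 4 genes passed against leaf before secretion (42.9% of all loci), 3 during it (59.5%) and 3 after it (38.8%). MYB24 was higher by 7.3 before, 8.18 during and 3.81 after secretion (SE 0.67, 0.73 and 0.73). With 1 TPM in both leaf libraries, these sizes depend on the pseudocount of 1. MYB21 passed before and during secretion, and no fold is given because both leaf libraries listed it at 0. ARF8 was higher at all 3 stages, by 1.46 (SE 0.27, adjusted p = 0.000367), 1.18 (SE 0.29, adjusted p = 0.00265) and 1.07 (SE 0.29, adjusted p = 0.00876). The last of these was lost without post-secretory C (0.66, adjusted p = 0.124) or leaf B (0.64, adjusted p = 0.146), and that during secretion without leaf B (0.76, adjusted p = 0.0576). ARF6 passed after secretion alone, at 0.61 (SE 0.16, adjusted p = 0.00566), and lay at -0.07 before and -0.14 during it. With the 3 libraries included, 1 of these calls was left, MYB24 during secretion (6.11, adjusted p = 0.0318).

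Between the species, MYB21 differed before and during secretion, ARF6 during it, ARF8 after it and in leaf, and MYB24 in leaf. In pre-secretory nectary 1 gene passed, beside 48.4% of all loci: MYB21 was higher in herrerae by 1.79 (SE 0.38, adjusted p = 0.00104). In secretory nectary 2 passed, beside 48.5%: MYB21 was higher in herrerae by 1.82 (SE 0.42, adjusted p = 0.00211) and ARF6 was lower by 0.69 (-0.69, SE 0.14, adjusted p = 0.000889). In post-secretory nectary 1 passed, beside 46.6%: ARF8 was higher in herrerae by 0.94 (SE 0.27, adjusted p = 0.0094). In leaf 2 passed, beside 39% of loci: ARF8 was higher in herrerae by 1.2 (SE 0.29, adjusted p = 0.00426) and MYB24 by 2.95 (SE 0.73, adjusted p = 0.00472). The MYB24 size depends on the pseudocount of 1, since both procumbens leaves held 1 TPM. Of the 4 nectary markers 2 were called higher in herrerae leaf and none lower, beside 2701 and 2393 of 13075 loci. Their median was 2.77 against 0.03 for all loci. Their part in the MYB24 contrast was not tested. The ARF8 call in post-secretory nectary was lost without procumbens post-secretory B (0.52, adjusted p = 0.206), and that in leaf without herrerae leaf A (0.91, adjusted p = 0.0618) or procumbens leaf B (0.78, adjusted p = 0.0788). Without procumbens post-secretory B, MYB24 passed in post-secretory nectary (2.01 against 0.81 with it, adjusted p = 0.0415).

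These species contrasts moved with the scaling. As deposited, MYB21 differed by 1.01 in pre-secretory nectary (adjusted p = 0.0445) and by 0.81 in secretory nectary, which did not pass (adjusted p = 0.145). ARF6 was lower in herrerae by a log2 difference of -0.89 in pre-secretory, -1.71 in secretory and -0.75 in post-secretory nectary, all called. ARF8 as deposited was lower in herrerae in pre-secretory (-0.88, adjusted p = 0.0344) and secretory nectary (-1.42, adjusted p = 0.00394), and its higher values in post-secretory nectary (0.4, adjusted p = 0.41) and leaf (0.96, adjusted p = 0.1) did not pass. On the full set of 23 libraries ARF6 in secretory nectary was the one call left (adjusted p = 0.0244). How Jaltomata transcripts were matched to Arabidopsis loci is not given in the sources used here, and a level between species carries that matching: CDC48, a gene every cell uses, was listed at 0 to 6 TPM in herrerae and 2 to 129 TPM in procumbens.

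The changes over the stages were also compared between the species, which cancels a constant matching factor on the log scale except near 0. At the onset of secretion 1 gene passed, beside 13.3% of loci: ARF6 had a species difference of -0.63 (SE 0.19, adjusted p = 0.0422), with -0.69 in herrerae and -0.07 in procumbens. At the end 2 passed, beside 20.9%: ARF8 had a species difference of 1.33 (SE 0.38, adjusted p = 0.0219), with 1.22 in herrerae and -0.11 in procumbens, and MYB21 had a species difference of -1.84 (SE 0.59, adjusted p = 0.0398), where both species ended at 0 or 1 TPM. MYB21 was higher in herrerae by 1.82 in secretory nectary and lay at -0.02 after secretion. Its difference thus repeats the secretory gap and does not cancel a matching factor. From leaf to secretory nectary 1 passed, beside 30.5%: ARF8 at -1.59 (SE 0.4, adjusted p = 0.00777). As deposited, ARF8 kept both calls (1.82 and -2.38), while ARF6 at the onset (-0.82, adjusted p = 0.238) and MYB21 at the end (-0.97, adjusted p = 0.343) did not pass. The ARF8 difference at the end was lost without procumbens post-secretory B (0.91, adjusted p = 0.135), secretory A (1.31, adjusted p = 0.0715) or secretory B (1.36, adjusted p = 0.0609). The MYB21 difference was lost without any of herrerae secretory A or C, herrerae post-secretory B or C, procumbens secretory A or B, or procumbens post-secretory B (adjusted p up to 0.161). The ARF6 difference was lost in 14 of the 20 cases, without any single herrerae nectary or procumbens pre-secretory or secretory library (adjusted p up to 0.195). When the 3 libraries were added back, none of the 4 differences passed.

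Ratios of 2 genes within a library do not depend on the scaling. ARF8 exceeded ARF6 in every herrerae library, by 1.22 to 1.51 times before, 1.26 to 1.54 during and 1.25 to 1.45 times after secretion and 1.07 to 1.22 times in leaf. In procumbens the ratio was 1.11 to 1.42 before and 1.01 to 1.25 during secretion, then 0.488 to 0.775 after it and 0.333 to 0.583 in leaf, so ARF6 was the higher of the pair in the last 2 tissues. Among the 14 auxin response factors measured, ARF8 ranked first in all 9 herrerae nectary libraries, with 21.8 to 27.6% of their summed TPM. In procumbens ARF8 ranked first before secretion (23 to 32.7%) and second during it (19.6 to 20.7%), and ARF6 ranked first after it (22.7 to 26.3%) and in leaf (24.6 to 27.8%). MYB24 stood at 14 to 16.8 times MYB21 in herrerae secretory nectary and at 43 to 43.3 times in procumbens secretory nectary. Close relatives such as MYB21 and MYB24, or ARF6 and ARF8, may share reads, so a level of one against the other is uncertain.

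The ratio of MYB24 to ARF8 was lower after secretion than before or during it in each species. After secretion MYB24 stood below ARF8 in every herrerae library and in procumbens post-secretory C, and still above it in procumbens post-secretory B. In herrerae MYB24 stood at 8.32 to 13.6 times ARF8 before and 11.7 to 20.6 times during secretion, against 0.158 to 0.767 after it and 0.123 to 0.349 in leaf. In procumbens the ratio was 1.56 to 8.7 before, 7.21 to 9.77 during and 0.131 to 1.34 after secretion, and 0.0286 to 0.0435 in leaf. Procumbens pre-secretory D, the lowest at 1.56, came near post-secretory B at 1.34, and no pre-secretory or secretory library overlapped a post-secretory or leaf library of its species.

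**Figure D3:**
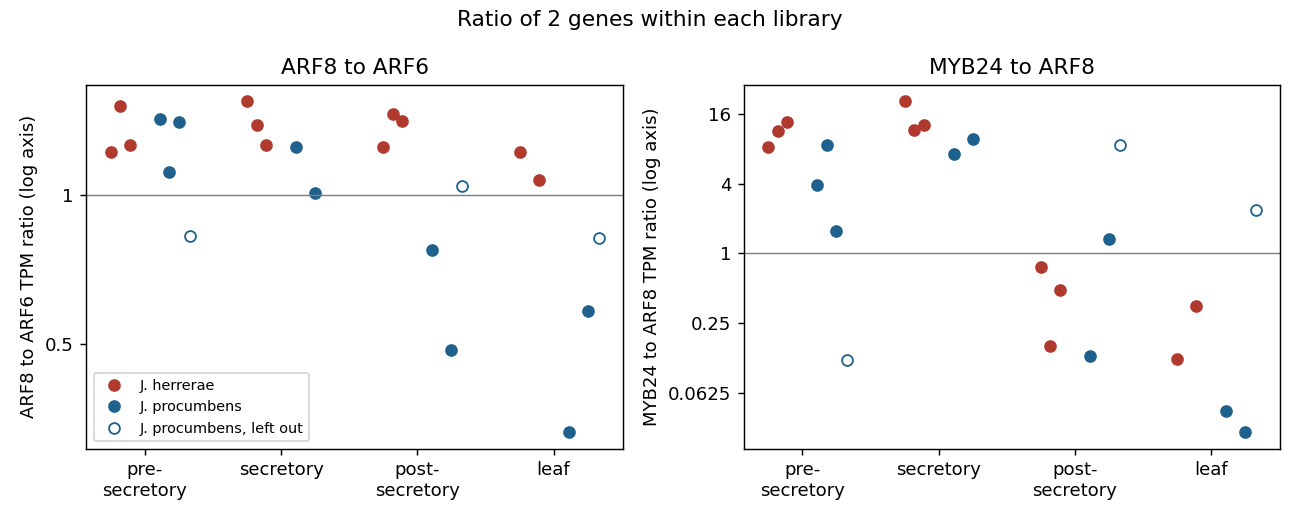
Ratio of ARF8 to ARF6 (left) and of MYB24 to ARF8 (right) in each library, from deposited TPM on log axes, by tissue and species. Open points are the 3 procumbens libraries left out. ARF8 exceeds ARF6 in every herrerae library, and the ratio is 0.333 to 0.775 in procumbens post-secretory nectary and leaf.

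The loci whose patterns were most like each gene were sought by Pearson correlation over the 20 libraries, on the rescaled log2 scale, among 10280 loci with a mean of at least 5 TPM. These correlations describe 8 groups of libraries and not 20 independent conditions. For MYB24 the 3 most alike were AT3G54390 (r = 0.964), AT5G46900 (0.958) and AT3G52600 (0.952). SWEET9, which exports sucrose from nectary cells, came sixth (0.949), and the nectary and carpel identity gene CRC came fifteenth (0.933), while the nectary invertase CWINV4 was at rank 1575 (0.579). For MYB21 they were AT5G06130 (0.959), AT3G22845 (0.959) and AT3G56460 (0.958), and MYB24 itself correlated at 0.9. SWEET9 (0.824), CRC (0.794) and CWINV4 (0.445) were at ranks 360, 496 and 2328 for MYB21. For ARF6 they were AT5G34930 (0.953), AT3G12210 (0.928) and AT4G11970 (0.915), and for ARF8 AT4G25180 (0.855), AT5G54430 (0.845) and AT5G54780 (0.827). ARF6 and ARF8 correlated with each other at 0.404.

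Jasmonate synthesis is the step between ARF6 and ARF8 and the MYB factors in Arabidopsis flowers. Of 12 tested synthesis genes, 9 fell and none rose at the onset of secretion in herrerae (median -1.58 against -0.04 for all loci, of which 18.1% fell). In procumbens 3 fell and none rose (median -0.3 against 0), near the 18.3% of all loci that fell, and 1 fell as deposited. At the end 8 rose and 1 fell in each species, with medians of 1.15 in herrerae and 1.41 in procumbens against 0.13 and 0.06 for all loci, of which 32.9% and 21.4% rose. As deposited 9 rose in herrerae, where 7041 of 13075 loci rose, and 8 in procumbens, where 3326 rose. LOX2, a lipoxygenase that starts the pathway, stood at 107, 155 and 64 TPM in pre-secretory, 9, 26 and 18 TPM in secretory and 417, 539 and 487 TPM in post-secretory herrerae nectaries A, B and C. In procumbens it stood at 92, 54 and 98 TPM in pre-secretory B, C and D, 49 and 76 TPM in secretory A and B, and 447 and 1157 TPM in post-secretory B and C. LOX2 thus fell and then rose in herrerae (-2.15, adjusted p = 0.00152, then 3.92, adjusted p = 3.14e-06) and rose at the end in procumbens (3.13, adjusted p = 0.000389). The lipoxygenase LOX3 rose at the end by 3.65 and 4.19 in herrerae and procumbens. AOS, the allene oxide synthase that follows the lipoxygenases, rose by 2.44 and 4.49. KAT2, a thiolase of peroxisomal beta-oxidation, was the member that fell, by 1.12 and 1.37. As deposited KAT2 did not pass in either species. DAD1, the lipase that ARF6 and ARF8 act on in Arabidopsis, was not analysed here. With the 3 libraries included, 4 of 12 synthesis genes rose at the end in herrerae, where 2279 of 13080 loci rose. None passed in procumbens, where 0 of 13080 loci passed.

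The jasmonate perception genes were called both ways in herrerae, at the end in numbers near the shares of all loci. In procumbens more were called higher than lower. Of 11 tested, 3 rose and 3 fell at the onset in herrerae, where 15.4% of all loci rose and 18.1% fell, and 4 rose and none fell in procumbens (17.3% and 18.3%). At the end 3 rose and 3 fell in herrerae (32.9% and 25.5% of all loci), and 5 rose and 1 fell in procumbens (21.4% and 16.9%). As deposited 1 rose and 2 fell at the onset in herrerae and 1 rose in procumbens. At the end 4 rose and 1 fell in herrerae, where 7041 of 13075 loci rose and 710 fell. In procumbens 5 rose and 1 fell, where 3326 loci rose and 647 fell. Among the JAZ repressors, JAZ8 rose at the end in both species (2.85 in herrerae, 2.18 in procumbens) and JAZ2 did too (1.96 and 1.56). JAZ6 went opposite ways: it rose by 2.46 at the onset and fell by 1.53 at the end in herrerae, and rose by 2.56 at the end in procumbens. As deposited its fall in herrerae did not pass (-0.64, adjusted p = 0.22). The species difference of JAZ6 at the end was -4.09 (SE 0.68, adjusted p = 0.000858), which passed as deposited too (adjusted p = 0.00195), and with all 23 libraries it did not pass (adjusted p = 0.371). MYC5, a jasmonate-responsive activator of stamen development, rose at the end by 3.81 and 2.76, and the co-repressor TPL (TOPLESS) fell by 1.79 and 1.87. The receptor COI1 rose at the onset in procumbens (0.81, adjusted p = 0.00202) and fell at the end in herrerae (-0.54, adjusted p = 0.0044). As deposited COI1 did not pass in either, and its sign at the end in herrerae turned (0.33, adjusted p = 0.314). On the full set of 23 libraries 3 rose and 1 fell at the end in herrerae, where 2279 of 13080 loci rose and 1941 fell. None passed in procumbens, where 0 of 13080 loci passed.

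Among auxin signalling genes, more rose than fell at the end of secretion. Of the 12 other auxin response factors tested, 8 rose and 1 fell in herrerae (median 1.38 against 0.13 for all loci), beside 32.9% of all loci higher and 25.5% lower. In procumbens 6 rose and 1 fell (median 0.74 against 0.06), beside 21.4% and 16.9%. As deposited 10 and 6 rose and none fell, where 7041 and 3326 of 13075 loci rose. ARF5, an activator of organ formation, rose by 3.12 and 2.02, ARF4 by 3.21 and 1.3 and ARF9 by 3.13 and 1.9. ARF16, a repressing ARF, fell by 0.78 and 1.17, and as deposited did not pass in either species (0.08 and -0.79). Of the 11 tested auxin receptors and Aux/IAA repressors, 7 rose and none fell in each species (medians 0.93 and 1.19), and 9 and 7 rose as deposited. Among these, the receptor TIR1 rose by 1.19 in both, and the repressors IAA27 and IAA3 by 3.04 and 3.18 in herrerae and 3.19 and 2.74 in procumbens. When the 3 libraries were added back, 6 of the ARFs and 3 of the receptors and repressors rose in herrerae, where 2279 of 13080 loci rose. None passed in procumbens, where 0 of 13080 loci passed.

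At the onset 1 of the other ARFs rose and 6 fell in herrerae (median -0.49, beside 15.4% of all loci higher and 18.1% lower), with ARF4 at -1.74 and ARF18 at -0.93. In procumbens 3 rose and none fell (median 0.37, beside 17.3% and 18.3%), with ARF1 at 1.52, ARF7 at 1.18 and ARF2 at 0.6. The species difference itself passed for 3 of the 12, all lower in herrerae, where 882 of 13075 loci were lower. None passed as deposited, where 317 loci were lower, or with all 23 libraries, where 15 of 13080 were lower. As deposited none rose and 5 fell in herrerae, where 503 of all loci rose and 2806 fell. In procumbens 1 rose as deposited, where 847 of all loci rose and 2274 fell. The rise of ARF1 was smaller in herrerae (0.53) by a species difference of -0.99 (SE 0.24, adjusted p = 0.0168), which did not pass as deposited (adjusted p = 0.0844) or with all 23 libraries (0.862). Among the receptors and repressors 1 rose and 3 fell in herrerae and 3 fell in procumbens, and IAA8 fell in both (-1.18 and -1.01). Of 5 tested genes of auxin synthesis, conjugation and transport, the efflux carrier PIN3 rose at the end in both species (0.87 and 1.82) and fell at the onset in procumbens (-1.25).

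**Figure D4:**
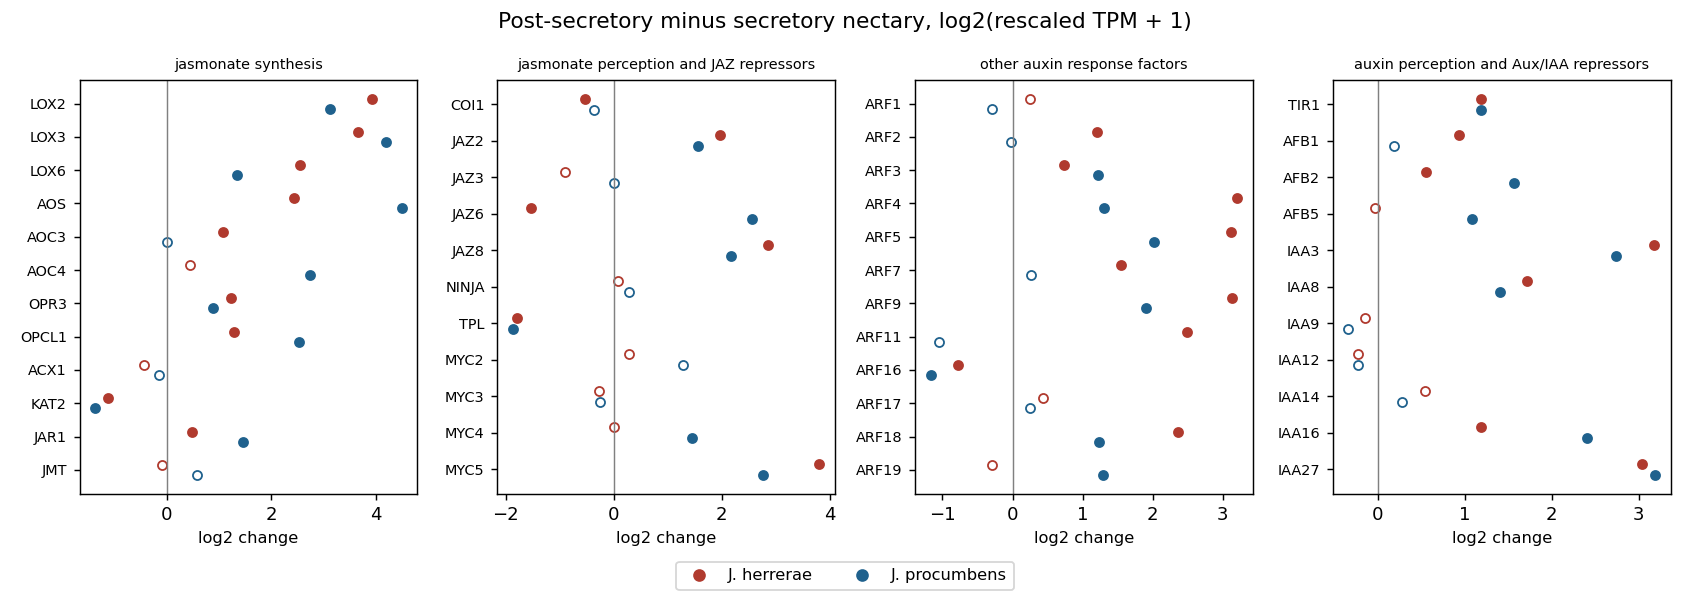
Log2 change from secretory to post-secretory nectary on rescaled TPM + 1 for the tested genes of jasmonate synthesis, jasmonate perception, other auxin response factors, and auxin receptors with Aux/IAA repressors. Filled points passed an adjusted p of 0.05. In each species 8 of 12 jasmonate synthesis genes and 7 of 11 auxin receptors and repressors rose, and JAZ6 fell in herrerae and rose in procumbens.

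Genes linked to MYB21, MYB24 or ARF8 in Arabidopsis flowers were called in both directions at the end of secretion. Of 6 tested, 1 rose and 3 fell in herrerae, beside 32.9% of all loci higher and 25.5% lower. In procumbens 2 rose and 2 fell, beside 21.4% and 16.9%. With 6 genes these counts are too small to set apart from the shares of all loci. SWEET9 stood at 8289 to 12296 TPM in secretory and 396 to 850 TPM in post-secretory herrerae nectary and fell by 4.93 (SE 0.73, adjusted p = 4.1e-05). In procumbens secretory nectaries A and B held 28548 and 36418 TPM of SWEET9 and post-secretory B and C held 3656 and 806, and it fell by 4.63 (SE 0.89, adjusted p = 0.00098). With the 3 libraries included, SWEET9 did not pass in either species (adjusted p = 0.0503 and 0.572). CWINV4, a cell wall invertase needed for nectar secretion in Arabidopsis, varied widely within groups, from 16 to 300 TPM in post-secretory herrerae nectary, and did not pass at the end in herrerae (-1.79, adjusted p = 0.389) or procumbens (-4.58, adjusted p = 0.0967). CRC fell at the end by 3.92 in herrerae and 3.5 in procumbens, and with all 23 libraries did not pass in either (adjusted p = 0.113 and 0.663).

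The sesquiterpene synthases TPS11 and TPS21, which make scent compounds of Arabidopsis flowers, differed from each other. TPS11 stood at 0 or 1 TPM in all herrerae secretory libraries and at 15, 18 and 14 TPM in post-secretory A, B and C (log2 change 3.47, adjusted p = 3.77e-07). In procumbens it was listed at 0 in both secretory libraries and stood at 61 and 47 TPM in post-secretory B and C, a step that passed (adjusted p = 6.68e-07) and with all 23 libraries did not (0.372). TPS21 stood at 2, 4 and 2 TPM in secretory and 1, 0 and 0 TPM in post-secretory herrerae nectaries A, B and C, and at 1 TPM in both secretory procumbens libraries and 14 and 15 TPM in post-secretory B and C. TPS21 fell in herrerae (-2.08, adjusted p = 0.0102) and rose in procumbens (2.45, adjusted p = 0.0203), with a species difference of -4.53 (SE 0.99, adjusted p = 0.00531), which with all 23 libraries did not pass (adjusted p = 0.195). FLS1, a flavonol synthase, rose at the onset in herrerae (2.12, adjusted p = 0.00025) and fell at the end (-3.36, adjusted p = 1.31e-06), from 57, 39 and 22 TPM in secretory A, B and C to 4, 5 and 9 TPM. In procumbens FLS1 was listed at 0 in all 9 kept libraries. BPE, a petal growth regulator that works with ARF8, fell at the onset in herrerae (-1.25, adjusted p = 0.000236) and procumbens (-0.63, adjusted p = 0.0343), and as deposited did not pass in procumbens (-0.87, adjusted p = 0.0718). On the full set of 23 libraries BPE passed in herrerae (adjusted p = 0.0457) and not in procumbens (0.716).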

How the data were processed

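RNA-seq was made from nectary and leaf libraries of both species. The deposited score is TPM that the authors rounded to whole numbers, and kallisto 0.46.1 is named as the quantifier per the submitters' processing notes. Neither the reference nor the step from Jaltomata transcripts to Arabidopsis loci is stated in the sources used here.

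From these values, 20 libraries were rescaled by median ratios, transformed as log2(TPM + 1) and kept at 1 TPM or more in at least 2 libraries (13075 loci). Each locus was tested two-sided with limma 3.58.1 in R 4.3.3, with a trended prior variance, 1 mean per group over 8 groups (12 residual degrees of freedom) and Benjamini-Hochberg adjustment in each of 19 comparisons. Tables and figures used Python 3.11.15. The steps were tested on simulated data.

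The members and lists were chosen with earlier results of these data known. Gene symbols come from the lists, since the table holds locus identifiers alone. Named genes were the members, up to 4 called genes with the largest change per list and comparison, a few fixed genes (SWEET9, CWINV4, CRC, LOX2) and the 3 loci most alike to each member. KAT2 and ARF16 fall outside this rule and were chosen after their values were seen, as the list members that fell. IAA7 and LOX4 were measured and too low to test. The alternatives tried were TPM as deposited, all 23 libraries, both together, a pseudocount of 0.1, no filter on low values, a mean of at least 5 TPM, the compared groups alone, a replicate block and leaving out each library.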

Additional observations from a re-analysis of the deposited data

Results flagged for a closer look

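The change over a stage differed between the species for 3 genes by the test of the difference itself (herrerae minus procumbens, log2 on rescaled TPM + 1). ARF8 differed by 1.33 from secretory to post-secretory nectary (beside 20.9% of all loci called) and by -1.59 from leaf to secretory nectary (30.5%). MYB21 differed by -1.84 from secretory to post-secretory nectary (20.9%), where the level in both species ended near 0. ARF6 differed by -0.63 at the onset of secretion (13.3%). As deposited the MYB21 and ARF6 differences did not pass. The calls at the onset and end also depended on single libraries, as given above, and were lost with the replicate block. With all 23 libraries none of these differences passed.

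In 2 of the 3 procumbens libraries left out, post-secretory A and leaf A, levels lay above those of the 4 kept leaf libraries. Post-secretory A held 21 TPM of MYB21, 715 of MYB24, 79 of ARF6 and 82 of ARF8, and leaf A held 9, 243, 126 and 103 TPM of the same genes. The library labelled leaf A thus held both MYB genes, and its leaf photosynthesis genes summed to 556 TPM against 33085 to 49814 in procumbens leaves B and C.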

How the results depend on the processing

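Counts are members called out of 4, and the count on the 20 rescaled libraries is given in the report. The number of all loci called moved with the setting too, so a changed count is not by itself a result about the members. For the species contrast before secretion 3223 of 13075 loci were higher and 3111 lower, and 1352 and 6330 as deposited. For herrerae post-secretory nectary against leaf 1601 were higher and 2518 lower, and 221 and 250 of 13080 with all 23 libraries. As deposited, the count became 2 for herrerae secretory against pre-secretory, 4 for herrerae post-secretory against pre-secretory and 3 against leaf, 3 for the species contrast before secretion, 1 for that in leaf, 0 and 1 for the species differences at the onset and end, and 3 for that against leaf. With all 23 libraries it became 3 for herrerae post-secretory against secretory, 1 against pre-secretory and 0 against leaf, 1 for procumbens secretory against leaf and 0 for the other procumbens comparisons, 1 for the species contrast in secretory nectary and 0 for the other contrasts and differences. With all 23 libraries as deposited it was 3 for herrerae post-secretory against secretory, 0 or 1 in the others of these, 0 for herrerae onset and for procumbens secretory against leaf, and 1 for herrerae pre-secretory and secretory against leaf. A pseudocount of 0.1 gave 0, 1, 1 and 3 for the species contrasts before and during secretion and the differences at the end and against leaf. A mean of at least 5 TPM gave 2 for the contrast before secretion. The compared groups alone gave 2 for herrerae onset, 4 for herrerae post-secretory against pre-secretory, 3 for the species contrast during secretion, 1 for procumbens post-secretory against leaf and for the leaf contrast, and 0 and 2 for the differences at the onset and against leaf.

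Leaving out 1 library gave 1 to 2 calls for herrerae onset, the species contrasts before secretion and in leaf, and the difference against leaf. It gave 0 to 3 for herrerae post-secretory against leaf, 3 to 4 for herrerae post-secretory against pre-secretory, 2 to 3 for procumbens secretory and post-secretory against leaf, 0 to 2 for the difference at the end and 0 to 1 for that at the onset. A group left with 1 library was assumed to vary like the others.

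Deviations from the group means correlated at -0.355 to 0.141 (median -0.00576) over 24 pairs of libraries with the same replicate letter. In a group of 2 libraries the deviations mirror each other, so these values cannot decide whether letters pair the libraries. The replicate block gave 1 call for herrerae post-secretory against leaf, 2 for procumbens post-secretory against secretory (ARF6 was lost, 0.61, adjusted p = 0.0747) and 0 for the differences at the onset and end; of 60 member results, 55 stayed on their side of the threshold and 5 lost their call. None of the 76 member results changed direction past the threshold. TPM rounded to whole numbers limits MYB21 most, at 0 to 54 TPM.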

Other observations

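Gibberellin signalling, which in Arabidopsis flowers acts upstream of jasmonate and MYB21 through the DELLA repressors, gave a contrast between the species. All 3 gibberellin receptor genes rose at the onset of secretion in procumbens, GID1B by 3.78 (SE 0.72, adjusted p = 0.00187), GID1C by 2.01 (SE 0.36, adjusted p = 0.00138) and GID1A by 1.78 (SE 0.35, adjusted p = 0.00223), and none of the 6 genes tested rose in herrerae. Of all loci 17.3% rose at this step in procumbens and 15.4% in herrerae. GID1B stood at 8, 69 and 4 TPM in procumbens pre-secretory B, C and D and at 181 and 176 TPM in secretory A and B. In herrerae it stood at 10, 21 and 19 TPM in pre-secretory and 20, 25 and 13 TPM in secretory nectaries A, B and C. The species difference passed for GID1B (-3.11, SE 0.97, adjusted p = 0.0457) and GID1C (-2.01, SE 0.48, adjusted p = 0.0153) and not for GID1A (-1.47, SE 0.47, adjusted p = 0.0518). With all 23 libraries 2 of the 6 genes rose in procumbens, and none of the 3 differences passed (adjusted p = 0.34, 0.186 and 0.503). The DELLA gene RGL2 fell at the onset in herrerae (-0.96, SE 0.17, adjusted p = 0.00064).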
